A study of Mus musculus with 199 samples.

Results

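Stathmins and tubulins are 10 of the 31581 genes counted in 199 mouse RNA-seq libraries of small-cell lung cancer and pre-cancerous cells. They are the 4 stathmins Stmn1, Stmn2, Stmn3 and Stmn4, the 4 beta-tubulins Tubb5, Tubb3, Tubb2a and Tubb2b, and the 2 alpha-tubulins Tuba1a and Tuba1b. All 10 symbols were found in the deposited table. The genes were chosen by symbol with earlier results of these data in view, above all the difference in Stmn2 between the RPC and KP1 lines, so that contrast is described here with fold changes and a count of calls, from which nothing is read, and no p-value. KP1, explanted from a mouse small-cell lung cancer, has the genotype Rb1-/-Trp53-/- and was sampled as spheroids, as colonies in the liver of nude (immunocompromised) mice and as colonies in the liver of F1 (immunocompetent) mice. RPC, explanted pre-cancerous cells grown as spheroids, has the genotype Rb1-/-Trp53-/-p130-/+Crebbp-/-, so every group lacks Rb1 and Trp53. Libraries of 10 cells taken by laser capture numbered 28 from KP1 spheroids, 33 from nude liver, 31 from F1 liver and 24 from RPC, and pool-and-split controls, which divide pooled captured material into portions of the same size, numbered 20, 35 and 24 for the KP1 groups. Bulk spheroid cultures of KP1 (Rb1-/-Trp53-/-), KP2 (Rb1-/-Trp53-/-Ptch1+/lacz), KP3 (Rb1-/-Trp53-/-Axin2+/lacz) and KP5 (Rb1-/-Trp53-/- BAT-GAL) gave 1 library each. Each line is a single line, and the labels used here do not state the number of mice, their age or the number of cultures, so p-values measure the spread between captures, which may be technical. Pool-and-split libraries are portions of pooled material and not separate samples of animals or cultures, so p-values between pools measure the spread between portions and are too small for a difference between animals or cultures.

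Microtubules are polymers of alpha- and beta-tubulin dimers. Stathmins bind free tubulin dimers and promote the shortening of microtubules, and phosphorylation of stathmin releases the dimers during mitosis. Stmn1 is the broadly expressed member, abundant in dividing cells, whereas Stmn2 (SCG10), Stmn3 (SCLIP) and Stmn4 (RB3) are membrane-anchored and best known from neurons and growth cones. Tubb5, Tuba1a and Tuba1b supply much of the tubulin of dividing and developing cells, and Tubb3, Tubb2a and Tubb2b are known for their use in neurons. Small-cell lung cancer is a neuroendocrine tumour, so genes of both kinds are found in its cells.

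The stathmin genes lie on 4 chromosomes of GRCm38: Stmn1 at chr4:134468320-134473843 and Stmn2 at chr3:8509360-8561606 and Stmn4 at chr14:66344296-66361680 on the plus strand, and Stmn3 at chr2:181306459-181314500 on the minus strand. The proteins of the beta-tubulin family are best told apart by their acidic C-terminal tails. The last 60 coding bases before the stop codon are shown to give how far the beta-tubulin genes differ there, from GENCODE M21 transcripts on GRCm38, with capitals marking bases that differ from Tubb2a among the beta-tubulins after alignment of the whole coding sequences:
Tubb2a: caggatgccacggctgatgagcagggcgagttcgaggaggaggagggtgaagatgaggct
Tubb2b: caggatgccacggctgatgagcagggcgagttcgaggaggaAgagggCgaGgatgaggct
Tubb5: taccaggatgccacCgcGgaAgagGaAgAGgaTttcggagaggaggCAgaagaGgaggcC
Tubb3: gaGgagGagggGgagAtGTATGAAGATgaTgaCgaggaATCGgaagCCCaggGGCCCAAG

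These stretches lie in the last coding exon, at chr13:34074471-34074530 on the minus strand for Tubb2a, chr13:34127474-34127533 on the minus strand for Tubb2b, chr17:35834985-35835044 on the minus strand for Tubb5 and chr8:123421620-123421679 on the plus strand for Tubb3. Tubb2b differed from Tubb2a at 3 of the 60 bases, Tubb5 at 12 and Tubb3 at 31. A base with no aligned partner in Tubb2a was counted as differing. The Tubb3 coding sequence held 15 such bases over its whole length.

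Over the whole coding sequence Tuba1a and Tuba1b were 98.3% identical, Tubb2a and Tubb2b 96.5%, Tubb5 and Tubb2a 84.6%, and Stmn1 and Stmn2 56.8%. Estimated counts that are not whole are the mark of reads shared between copies. They were found in 99.0% of libraries for Tuba1b, 98.5% for Tuba1a, 94.5% for Tubb5 and 79.4% for Tubb2a, against 0% for Stmn3. The split of reads between Tuba1a and Tuba1b and between Tubb2a and Tubb2b is therefore uncertain, and their sums are given where they change a result. Stmn2 was not whole in 17.6% of libraries, but libraries at 0 count as whole and Stmn2 was at 0 in most libraries.

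Promoters are shown for Tubb5, Tuba1a and Tubb2a, the 3 tubulins called lower in nude liver than in spheroids in both captures and pools (described further on). RefSeq tables on GRCm38.p6 held a promoter for 6 of the 10 genes. Capitals mark matches on either strand to CCAAT (found in 33.8% of 32851 stretches of 250 bases before a gene's start), TATAAA (12.4%), GGGCGG (32.7%) and TGACGTCA (1.55%), and each sequence is written in the direction of transcription. The Tubb2a stretch has those 250 bases, and the Tubb5 and Tuba1a stretches are cut to 245 and 200 bases, shorter than the background:
Tubb5: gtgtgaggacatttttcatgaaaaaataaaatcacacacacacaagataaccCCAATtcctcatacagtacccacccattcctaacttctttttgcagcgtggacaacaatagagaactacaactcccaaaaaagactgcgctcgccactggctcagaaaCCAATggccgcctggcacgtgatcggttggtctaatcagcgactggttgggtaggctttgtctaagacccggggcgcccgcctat
Tuba1a: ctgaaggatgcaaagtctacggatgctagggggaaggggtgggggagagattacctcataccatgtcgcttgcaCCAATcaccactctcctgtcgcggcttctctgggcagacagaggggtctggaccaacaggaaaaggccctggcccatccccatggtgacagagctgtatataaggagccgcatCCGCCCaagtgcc
Tubb2a: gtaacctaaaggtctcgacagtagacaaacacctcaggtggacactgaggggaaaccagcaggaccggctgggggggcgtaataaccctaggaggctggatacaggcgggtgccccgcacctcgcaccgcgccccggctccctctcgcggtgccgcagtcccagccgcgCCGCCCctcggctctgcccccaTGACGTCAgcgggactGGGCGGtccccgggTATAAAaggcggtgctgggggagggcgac

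The stretches are chr17:35838307-35838551 for Tubb5, chr15:98953552-98953751 for Tuba1a and chr13:34078009-34078258 for Tubb2a, all on the minus strand. Tubb5 held 2 CCAAT matches, Tuba1a held 1 CCAAT and 1 GGGCGG match, and Tubb2a held 1 TATAAA, 2 GGGCGG and 1 TGACGTCA match. These are letter matches, and none of the 4 motifs was found in all 3 sequences.

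Levels are in CPM (a gene's count relative to all gene counts of its library, on the usual CPM scale), with spike-in RNA left out. Gene counts ran from 3775230 to 5308790 in KP1 spheroid captures, 718208 to 4239790 in nude liver captures, 1646400 to 5432860 in F1 captures and 3485530 to 7557770 in RPC captures. Neuroendocrine markers were present in all capture groups, with counts for 12 of 12 markers and median summed levels of 2942, 1877, 2868 and 2014 CPM in spheroid, nude liver, F1 liver and RPC captures. Hepatocyte markers had a median summed level of 1019 CPM (33.8 to 5773) in nude liver captures with counts for 15 of 15 markers, 199 CPM (0 to 2150) in F1 captures and 1.11 CPM (0 to 99.2) in spheroid captures, where Alb and 8 other markers of the 15 were at 0. Erythrocyte markers had a median summed level of 1622 CPM (0 to 32920) in F1 captures and 551 CPM (0.593 to 3743) in nude liver captures, with counts for 6 of 6 markers in each, and 0 CPM (0 to 31.3) in spheroid captures, where 3 of 6 were at 0. ERCC spike-ins made up over 10% of counts in 17 of 24 F1 pools, 3 of 35 nude pools, 1 nude capture and 1 F1 capture.

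Stmn2 was on in every RPC library and off in nearly every KP1 library. In the 24 RPC captures it ranged from 220.4 to 1954 CPM with a median of 592 and a mean of 708 ± 441 (SD, n = 24). In the 28 KP1 spheroid captures it had a total of 1 count, in 1 library, at 0.228 CPM, and 27 libraries were at 0. The groups did not overlap. RPC libraries summed to 86506 Stmn2 counts, a ratio of 85620 per count sequenced with an exact Poisson 95% interval of 15367 to 3381790, which covers counting error only. The difference was part of what chose these genes, so it supports nothing further here. Stmn2 was also rare in liver, with a count in 3 of 33 nude captures and 2 of 31 F1 captures.

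The KP1 libraries that did contain Stmn2 were few and scattered. Spheroid pool 1 had 62.9 CPM, nude liver capture 26 had 110 CPM, nude liver pools 3 and 10 had 13.7 and 332 CPM, and F1 pool 16 had 152 CPM. These 5 libraries were chosen after their values were seen, as those with at least 10 CPM. Nude pool 10 stood above the lowest RPC library, and the other 4 stood below it. Svbp, which encodes a partner of the enzymes that remove the C-terminal tyrosine of alpha-tubulin, averaged 54.2 ± 35.0 CPM (SD, n = 24) over RPC captures against 1483 ± 477 CPM (SD, n = 28) over those of KP1 spheroids, and 428 to 1462 CPM in these 5 libraries. In 4 of them Svbp lay within the KP1 spheroid range of 852 to 2583 CPM, and in nude pool 10, at 428 CPM, it lay between that range and the highest RPC library (121 CPM). Elavl2, an RNA-binding protein of neurons, was at 0 to 6.69 CPM in the 5 libraries, against means of 143 CPM in RPC and 4.92 CPM in KP1 spheroid captures. Prph, the neuronal intermediate filament peripherin, was at 19.2, 47.6 and 6.18 CPM in spheroid pool 1, nude capture 26 and nude pool 3, and at 0 and 0.739 CPM in nude pool 10 and F1 pool 16, against means of 0.0251 CPM in RPC and 52.2 CPM in KP1 spheroid captures. Pools held Stmn2 counts in 1 of 20 spheroid, 7 of 35 nude and 6 of 24 F1 libraries.

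Of the other members known from neurons Stmn3, Stmn4 and Tubb2b were higher in RPC, and Tubb3 and Tubb2a had log2 differences of 0.07 (SE 0.48) and 0.08 (SE 0.39). Stmn4 ranged from 0.559 to 83.2 CPM (median 17.0) in RPC and from 0 to 8.18 CPM (median 1.50) in KP1 spheroid captures, and 19 of 24 RPC libraries exceeded every KP1 library (log2 fold change 3.28, SE 0.60). Tubb2b had a median of 14.7 CPM (0 to 93.0) in RPC and 0.491 CPM (0 to 3.81) in KP1, with 17 of 24 RPC libraries above all KP1 libraries (4.72, SE 0.68). With the reads of Tubb2a and Tubb2b summed the log2 difference was 0.43 (SE 0.38), because Tubb2a, at medians of 56.4 and 53.2 CPM, holds most of those reads. Stmn3 had medians of 257 CPM (53.1 to 859) and 97.3 CPM (11.2 to 490), and the ranges overlapped (1.07, SE 0.28; 0.79 and no longer called against the spheroid captures with at least 0.1% ERCC). The broadly expressed members overlapped between the lines: log2 differences were -0.17 for Stmn1, -0.10 for Tubb5, -0.31 for Tuba1a and -0.27 for Tuba1b. Of the 10 members 4 were called by edgeR, all higher in RPC, against 21.9% of all genes, and limma-voom called Stmn1, Tuba1a and Tuba1b lower as well; since the choice of genes used this contrast, nothing is read from the count. RPC is 1 line and KP1 another, so line and genotype cannot be told apart.

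**Figure D1:**
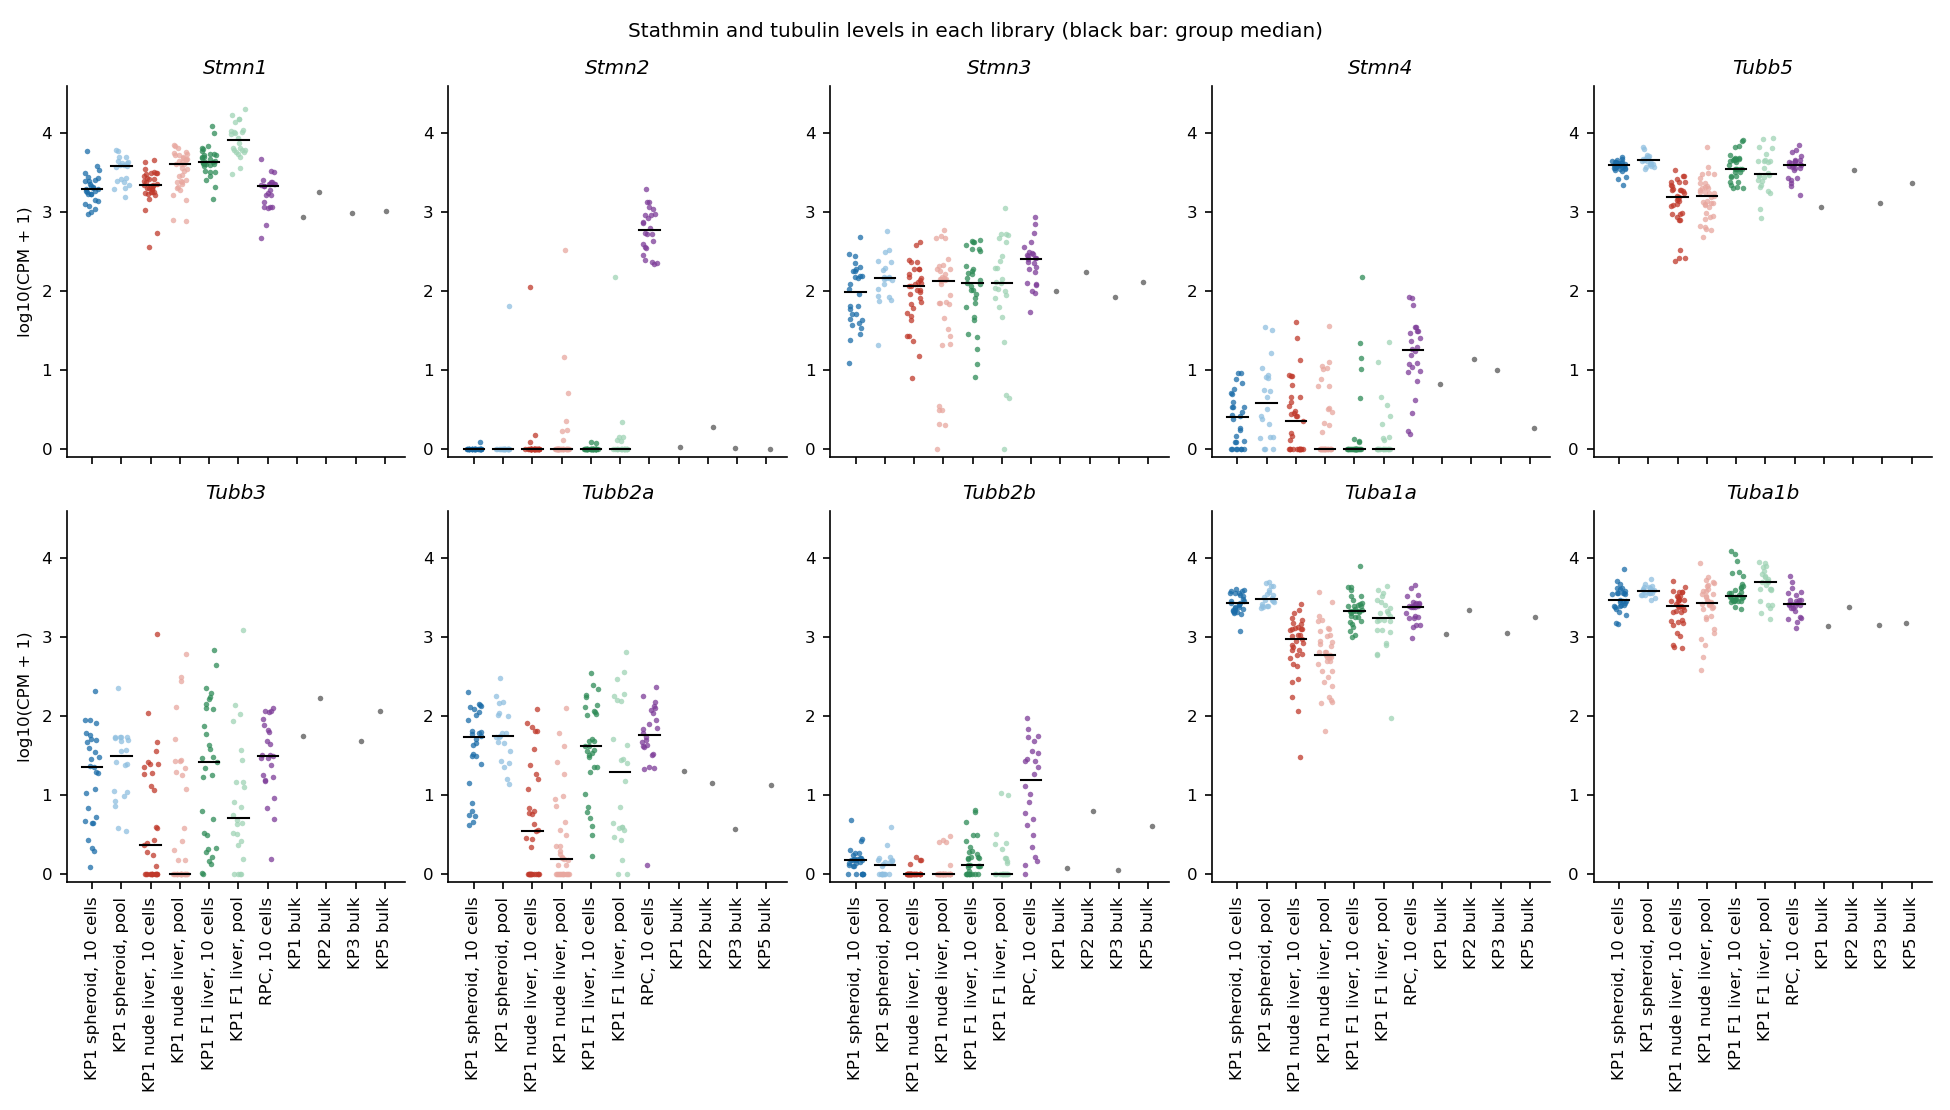
Each point is a library; the vertical axis of each panel is log10(CPM + 1) and the horizontal axis gives the group, with black bars at group medians. Stmn2 is at 220.4 CPM or more in all 24 RPC libraries and at 0 in 27 of 28 KP1 spheroid captures, while Tubb5 and Tuba1a sit lower in nude liver than in KP1 spheroids.

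Tubb5, Tuba1a and Tubb2a were lower in KP1 colonies in nude liver than in KP1 spheroids, in captures and in pools. Tubb5, a beta-tubulin of dividing cells, ranged from 2234 to 5080 CPM in spheroid captures (median 3915) and from 236 to 3401 CPM in nude liver captures (median 1574). All 33 nude captures were below the spheroid median and 25 were below every spheroid capture. The fitted log2 fold change was -1.52 (SE 0.17, edgeR adjusted p = 2.51e-11), a level of 0.349 of that in spheroids. A 10-cell library sums over its cells, so fewer cells with the transcript and less transcript per cell cannot be told apart.

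Tuba1a, an alpha-tubulin prominent in developing neurons, followed the same course. It ranged from 1190 to 4056 CPM in spheroid captures (median 2684) and from 29.7 to 2625 CPM in nude liver captures (median 950). All 33 nude captures lay below the spheroid median, and 20 below every spheroid capture, although the ranges overlapped (log2 fold change -1.67, SE 0.21, edgeR adjusted p = 1.16e-09). Tubb2a ranged from 3.20 to 202 CPM in spheroid captures (median 53.2) and from 0 to 121 CPM in nude liver captures (median 2.54), where 13 of 33 libraries held no count. It was lower by the fit (-2.25, SE 0.63, edgeR adjusted p = 0.0035). Tuba1b, the other abundant alpha-tubulin, had medians of 2939 CPM (1467 to 7272) and 2483 CPM (720 to 5242) and a smaller difference (-0.58, SE 0.16, edgeR adjusted p = 0.00213), not called with library totals alone (-0.36, edgeR adjusted p = 0.0661).

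The remaining tested members were not called by edgeR. Stmn1 had medians of 1973 CPM (959 to 5964) in spheroid captures and 2232 CPM (360 to 4617) in nude captures, with a log2 difference of 0.04 (95% interval -0.25 to 0.33, edgeR adjusted p = 0.862). Stmn3 differed by -0.02 (95% interval -0.62 to 0.59). Tubb3, the beta-tubulin used as a neuronal marker, had a median of 21.9 CPM in spheroid captures and 1.32 CPM in nude captures, yet similar means of 35.2 and 43.9 CPM, because 1 nude capture at 1095 CPM held 75.6% of the group's summed level. Without that library the nude mean was 11.0 CPM. Other tools called Tubb3 lower in nude liver captures: DESeq2 at -1.69 (adjusted p = 0.02) and limma-voom at -2.93 (adjusted p = 0.000315). Stmn2, Stmn4 and Tubb2b did not pass the filter on low counts. Of the 7 members tested 4 were called, all lower in nude liver, against 34.1% of all genes tested.

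The pool-and-split libraries showed the same 3 large differences. Tubb5 ranged from 3534 to 6797 CPM in spheroid pools (median 4535) and from 479 to 6649 CPM in nude pools (median 1609), and 33 of 35 nude pools were below every spheroid pool (log2 fold change -1.16, SE 0.20, edgeR adjusted p = 5.13e-06). Tuba1a had medians of 3064 CPM (2322 to 4960) and 597 CPM (63.7 to 3763), again with 33 of 35 nude pools below every spheroid pool (-1.72, SE 0.27, edgeR adjusted p = 8.96e-07). Tubb2a had medians of 54.9 and 0.567 CPM (-2.98, SE 0.77, edgeR adjusted p = 0.00213), a call that ended with only the spheroid pools of at least 0.1% ERCC as reference (-2.98, edgeR adjusted p = 0.102). Tuba1b was not called in pools (-0.18, SE 0.19, edgeR adjusted p = 0.518), nor was Stmn1 (0.34, SE 0.18, edgeR adjusted p = 0.149), which TMMwsp scaling (0.45, edgeR adjusted p = 0.0454) and DESeq2 (0.90, adjusted p = 1.93e-05) called higher. Of the 8 members tested 3 were called, against 25.6% of all genes.

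Hepatocyte RNA moved with this contrast, and so did other measures. From spheroid to nude captures the median ERCC share went from 0.00465% to 0.969%. The median of neuroendocrine markers went from 2942 to 1877 CPM. Over nude captures Tubb5 had a Spearman's rho of 0.71 with gene counts, 0.59 with neuroendocrine markers and -0.17 with hepatocyte markers. The part of depth and of tumour cell content in the difference was not tested. With the summed hepatocyte marker level as a covariate, Tubb5 remained called (-1.42, edgeR adjusted p = 0.0187), while Tuba1a (-0.87, edgeR adjusted p = 0.277), Tuba1b (-0.21, edgeR adjusted p = 0.824) and Tubb2a (-2.34, SE 1.54, edgeR adjusted p = 0.454) did not. The Tubb2a difference was thus about as large as without the covariate, with a wider error. A single nude capture was at or under the highest hepatocyte level of the spheroids, and it had 1209 CPM of Tubb5 and 1753 CPM of Tuba1a. Tubb5 was as low with either part of the spheroid captures as reference: -1.72 against the 9 captures with at least 0.1% ERCC and -1.43 against the 19 with less. With the reads of Tuba1a, Tuba1b and Tuba1c summed, the alpha-tubulins differed by -0.93 (SE 0.14) in captures and by -0.70 (SE 0.15) in pools.

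Stmn1 rose in F1 liver. It ranged from 1456 to 12253 CPM in F1 captures (median 4343), and 30 of 31 were above the spheroid median of 1973 CPM. The log2 fold change over spheroids was 1.54 (SE 0.16, edgeR adjusted p = 3.64e-11), 2.91-fold. In pools the rise was larger in size, from a median of 3905 CPM (1536 to 6189) to 8152 CPM (3081 to 20403), and 15 of 24 F1 pools exceeded every spheroid pool (2.12, SE 0.22, edgeR adjusted p = 4.56e-10). The difference between captures and pools in this contrast was not called (-0.48, 95% interval -1.01 to 0.04, edgeR adjusted p = 0.323).

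Tuba1b was higher in F1 liver as well, with a median of 3380 CPM (2259 to 12389) in captures against 2939 CPM in spheroids (0.78, SE 0.19, edgeR adjusted p = 0.00342) and 5043 CPM (1692 to 9062) against 3894 CPM (2997 to 5498) in pools (0.98, SE 0.19, edgeR adjusted p = 0.000163). This call depended on the settings. In captures and in pools it was lost with only the spheroid libraries of at least 0.1% ERCC. It also depended on the scaling of the libraries. TMM, which scales libraries to a common middle set of genes, raised log2 differences in this contrast by 0.26 in captures and 0.61 in pools relative to library totals. With library totals alone Tuba1b was at 0.44 (edgeR adjusted p = 0.0531) and 0.36 (edgeR adjusted p = 0.139), whereas Stmn1 stayed called at 1.16 and 1.35.

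Tubb5 and Tuba1a were not called by edgeR with TMM between F1 liver and spheroids, and the result for Tubb5 changed with the settings. Tubb5 had a median of 3568 CPM (2021 to 8340) in F1 captures against 3915 CPM in spheroid captures (log2 difference 0.42, edgeR adjusted p = 0.0763), and 5 of 15 alternatives called it higher, up to 0.65 with DESeq2 (adjusted p = 0.0117). In F1 pools its median was 3050 CPM (851 to 8659), and 13 of 24 pools were below every spheroid pool on the CPM scale, yet the fitted difference was 0.32 (edgeR adjusted p = 0.343) and -0.28 with library totals alone; DESeq2 called it higher (0.83, adjusted p = 0.00796), as did edgeR without libraries over 10% ERCC (0.91, adjusted p = 0.00327). Tuba1a had a median of 2176 CPM (1012 to 8120) in F1 captures (0.20, 95% interval -0.16 to 0.56) and 1778 CPM (93.6 to 4532) in F1 pools (-0.15, edgeR adjusted p = 0.741). With library totals alone Tuba1a was at -0.15 in captures and was called lower in pools (-0.74, edgeR adjusted p = 0.0271), so the scaling turned the direction of Tuba1a in captures and of Tubb5 in pools. With Tuba1a, Tuba1b and Tuba1c summed, F1 liver was higher by 0.57 in captures (edgeR adjusted p = 0.0118) and by 0.59 in pools (edgeR adjusted p = 0.00895). Stmn3 (0.86, edgeR adjusted p = 0.0786), Tubb3 (1.50, edgeR adjusted p = 0.105) and Tubb2a (0.53, edgeR adjusted p = 0.471) were not called. Of 7 members tested 2 were called in captures and 2 in pools, all higher, against 12.6% and 11.6% of all genes.

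The F1 libraries fall into a part with low and a part with high Rpl19-ps11, a ribosomal pseudogene row, and the rise of Stmn1 was seen in both. It was 0.97 (edgeR adjusted p = 0.00273) with the 6 captures under 200 CPM of Rpl19-ps11 and 1.74 (edgeR adjusted p = 1.77e-12) with the other 25. Tuba1b was at -0.07 (edgeR adjusted p = 0.931) and 1.00 (edgeR adjusted p = 0.000214) in these parts, and the difference between the parts was not tested. In the 11 F1 captures with hepatocyte markers at or under the highest spheroid level, median Stmn1 was 4054 CPM. Erythrocyte markers also moved with this contrast, and over F1 captures Stmn1 had a Spearman's rho of 0.28 with them and 0.48 with hepatocyte markers; the part of erythrocyte RNA in the result was not tested. With the hepatocyte covariate Stmn1 was at 1.20 and remained called, and Tuba1b was at 0.68 (edgeR adjusted p = 0.0866).

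**Figure D2:**
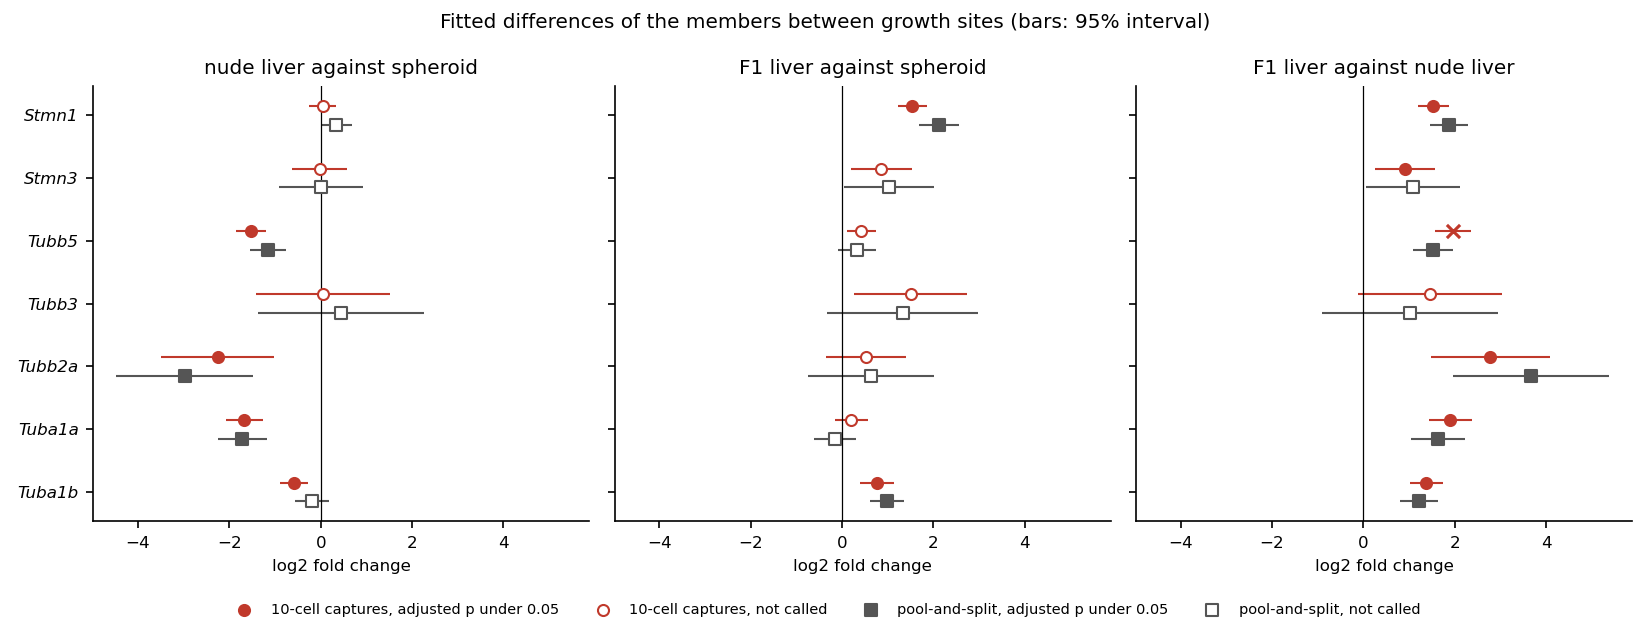
Points are fitted log2 fold changes of 7 members, circles for 10-cell captures and squares for pools, with bars for the 95% interval and filled points for adjusted p under 0.05. Tubb5 in F1 against nude captures is drawn as a cross because it is described without a test. Tubb5, Tubb2a and Tuba1a are lower in nude liver and Stmn1 is higher in F1 liver, in captures and pools alike.

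Between the hosts, Stmn1, Tuba1a, Tuba1b and Tubb2a were called higher in F1 than in nude liver colonies in captures and in pools. Markers moved with this contrast: from nude to F1 captures the median summed level went from 1019 to 199 CPM for hepatocytes, from 1877 to 2868 CPM for neuroendocrine cells and from 551 to 1622 CPM for erythrocytes. With the hepatocyte covariate these 4 genes remained called in captures, and the part of the other markers was not tested. The F1 and nude libraries are the same ones that were set against spheroids above. For Tubb5 in captures an earlier result of these data was known, so it is given as a description: 31 of 31 F1 captures were above the nude median and 20 were above every nude capture (log2 difference 1.96, SE 0.20). In pools, Tubb5 had a median of 3050 CPM in F1 liver and 1609 CPM in nude liver, with 22 of 24 F1 pools above the nude median (1.52, SE 0.22, edgeR adjusted p = 1.47e-06).

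Stmn1 was higher in F1 liver by 1.53 in captures (SE 0.18, edgeR adjusted p = 4.70e-10) and by 1.87 in pools (SE 0.21, edgeR adjusted p = 3.24e-09), with 14 of 31 F1 captures above every nude capture. Tuba1a was higher by 1.90 (SE 0.24, edgeR adjusted p = 9.11e-09) and 1.63 (SE 0.30, edgeR adjusted p = 7.38e-05), and all 31 F1 captures exceeded the nude median of 950 CPM. Tubb2a was higher by 2.78 (SE 0.66, edgeR adjusted p = 0.00119) and 3.68 (SE 0.87, edgeR adjusted p = 0.00304), with 29 of 31 captures above the nude median. Tuba1b was higher by 1.38 (SE 0.19, edgeR adjusted p = 6.29e-08) and 1.22 (SE 0.21, edgeR adjusted p = 2.91e-05). Stmn3 passed in captures (0.92, edgeR adjusted p = 0.0428) but not in pools (1.10, edgeR adjusted p = 0.158), and Tubb3 passed in neither (1.45, edgeR adjusted p = 0.206, and 1.02, edgeR adjusted p = 0.531). Of the 7 members 6 passed the threshold in captures, against 19.2% of all genes, and nothing is read from that count since it holds Tubb5. In pools 5 of 7 were called, all higher, against 12.0% of all genes.

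The scaling set part of the size of these differences, since TMM raised log2 differences by 0.42 in captures and 0.43 in pools. With library totals alone Stmn1 was at 1.04 and 1.29, Tuba1a at 1.30 and 1.24, Tuba1b at 0.79 and 0.72, each still called, and Stmn3 at 0.43 in captures, no longer called. With only the 6 F1 captures low in Rpl19-ps11, Stmn1 was at 1.00 (edgeR adjusted p = 0.0333), while Tuba1a (1.09, edgeR adjusted p = 0.0829), Tuba1b (0.60, edgeR adjusted p = 0.167) and Tubb2a (0.84, edgeR adjusted p = 0.722) were not called.

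**Figure D3:**
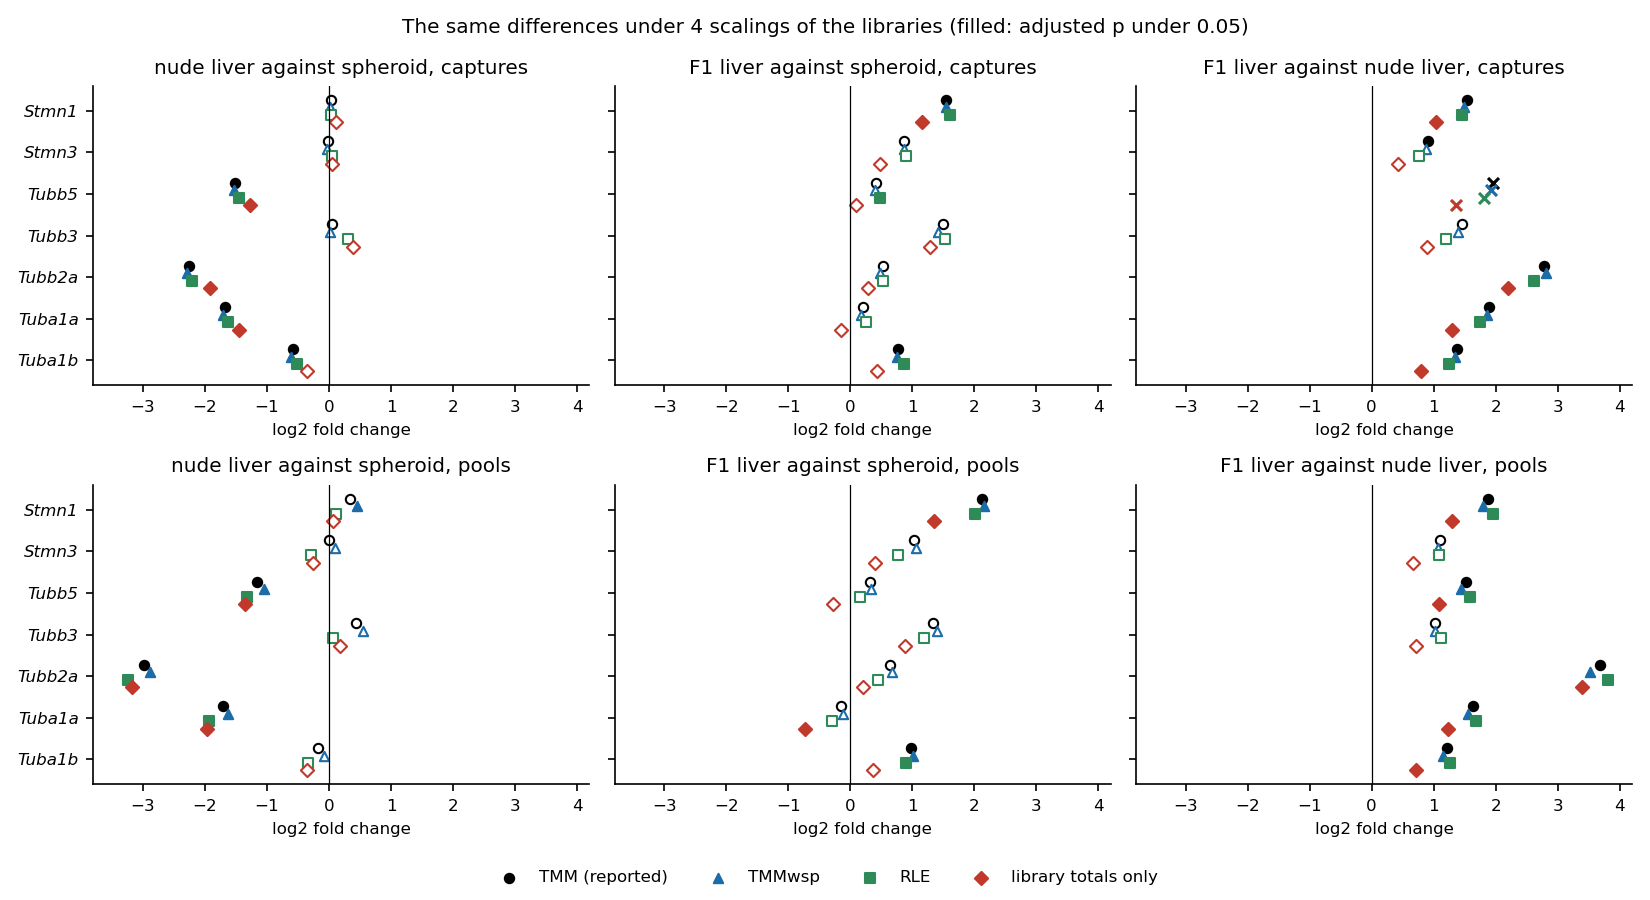
Fitted log2 fold changes of 7 members under 4 ways of scaling the libraries, with filled points for adjusted p under 0.05 and crosses for Tubb5 in F1 against nude captures, which is described without a test. Library totals alone (diamonds) move Tuba1b in F1 liver against spheroid from 0.78 to 0.44 in captures and from 0.98 to 0.36 in pools, while Stmn1 stays filled in those panels.

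Between captures and pools of the same condition edgeR called no tubulin, and Stmn1 lower in the captures of both liver groups. DESeq2 called Tubb5 (-0.69, adjusted p = 0.0235) and Tuba1b (-0.72, adjusted p = 0.00875) lower in nude captures than in nude pools. In nude liver the median of Stmn1 was 2232 CPM in captures and 4062 CPM (783 to 7202) in pools (-0.89, SE 0.17, edgeR adjusted p = 0.00239). In F1 liver Stmn1 was at 4343 against 8152 CPM (-1.08, SE 0.21, edgeR adjusted p = 0.00112). In spheroids it was at 1973 against 3905 CPM (-0.46, SE 0.12, edgeR adjusted p = 0.0525). There 5 of 11 alternatives called Stmn1 lower in captures, with values from -0.74 to -0.21 over all 11. Called members numbered 0 of 8 in spheroids, 1 of 5 in nude liver and 1 of 7 in F1 liver, against 0.713%, 1.25% and 7.22% of all genes. The F1 call was lost without the libraries with over 10% ERCC (-0.68, edgeR adjusted p = 0.206), which took out 17 of 24 F1 pools, and with F1 libraries low in Rpl19-ps11 (-1.23, edgeR adjusted p = 0.351). Among spheroid pools Stmn1 had 2137 ± 395 CPM (SD, n = 6) in those with at least 0.1% ERCC. The others had 4278 ± 1033 CPM (SD, n = 14). The part of the spike-in in this gap between pools was not tested. With only the spheroid libraries under 0.1% ERCC Stmn1 was called lower in captures than in pools. With only those of at least 0.1% it was not called.

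Differences between growth sites were also compared between captures and pools. No member was called in these tests of the difference, with 0 of the 8 members tested in each of 3 contrasts against 2.07% of all genes for nude liver minus spheroid, 5.96% for F1 minus spheroid and 11.5% for F1 minus nude liver. For Tubb5 the capture-minus-pool difference was 0.50 in F1 minus nude liver (95% interval -0.03 to 1.04, edgeR adjusted p = 0.237) and -0.36 in nude liver minus spheroid (95% interval -0.92 to 0.20).

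Spread between captures was not called larger than the spread of the pools for any member. It was measured as how far libraries lay, on average and in either direction, from their group's median in log2(CPM + 1), corrected for group size. Tubb5 deviated by 0.179 in spheroid captures and 0.194 in spheroid pools. Tuba1b deviated by 0.412 and 0.162 there, a difference of 0.250 (95% interval 0.085 to 0.415) that did not pass adjustment over all genes (limma adjusted p = 0.795). In nude liver Tubb5 deviated by 0.755 in captures and 0.666 in pools, and in F1 liver by 0.456 and 0.666. The same limma test called 0% of all genes in spheroids (510 at an unadjusted p under 0.05), 0.724% in nude liver and 1.50% in F1 liver.

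Within the nude liver captures the tubulins rose and fell together from library to library. Over the 33 captures Spearman's rho was 0.66 between Tubb5 and Tuba1b, 0.64 between Tubb5 and Tubb2a and 0.52 between Tuba1a and Tuba1b. The median over the 10 pairs of Tubb5, Tubb3, Tubb2a, Tuba1a and Tuba1b was 0.57, with 9 pairs over 0.4. It was 0.14 in spheroid captures, 0.07 in F1 captures, 0.18 in RPC captures and -0.01 to 0.16 in the 3 pool groups. Points of 1 group share the depth and quality of their libraries: in nude captures Tubb5 had a rho of 0.71 with gene counts, -0.67 with the ERCC share and 0.69 with genes detected, 0.59 with neuroendocrine markers and -0.17 with hepatocyte markers. The other 4 tubulins had a rho of 0.39 to 0.56 with neuroendocrine markers. The part of depth and of tumour cell content in the shared course of the tubulins was not tested.

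Stmn1 and Stmn3 went together in spheroids. Their rho was 0.65 in spheroid captures and 0.75 in spheroid pools, 0.38 in RPC captures, 0.36 in nude pools, 0.14 in nude captures, 0.11 in F1 captures and -0.12 in F1 pools. Stmn1 also followed the summed level of proliferation genes in spheroids, with a rho of 0.62 in captures and 0.84 in pools, against 0.29 in F1 captures, 0.23 in nude pools, -0.15 in RPC captures, -0.24 in nude captures and -0.39 in F1 pools. In spheroid pools Stmn1 had a rho of -0.59 with the ERCC share and 0.52 with genes detected, and Stmn3 of -0.46 and 0.49. Mean Stmn1 was 2137 CPM in the 6 spheroid pools with at least 0.1% ERCC and 4278 CPM in the 14 others. Mean Stmn3 was 101 and 207 CPM in these parts. The part of this split in the correlations was not tested. All these correlations are descriptions of 20 to 35 libraries each.

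**Figure D4:**
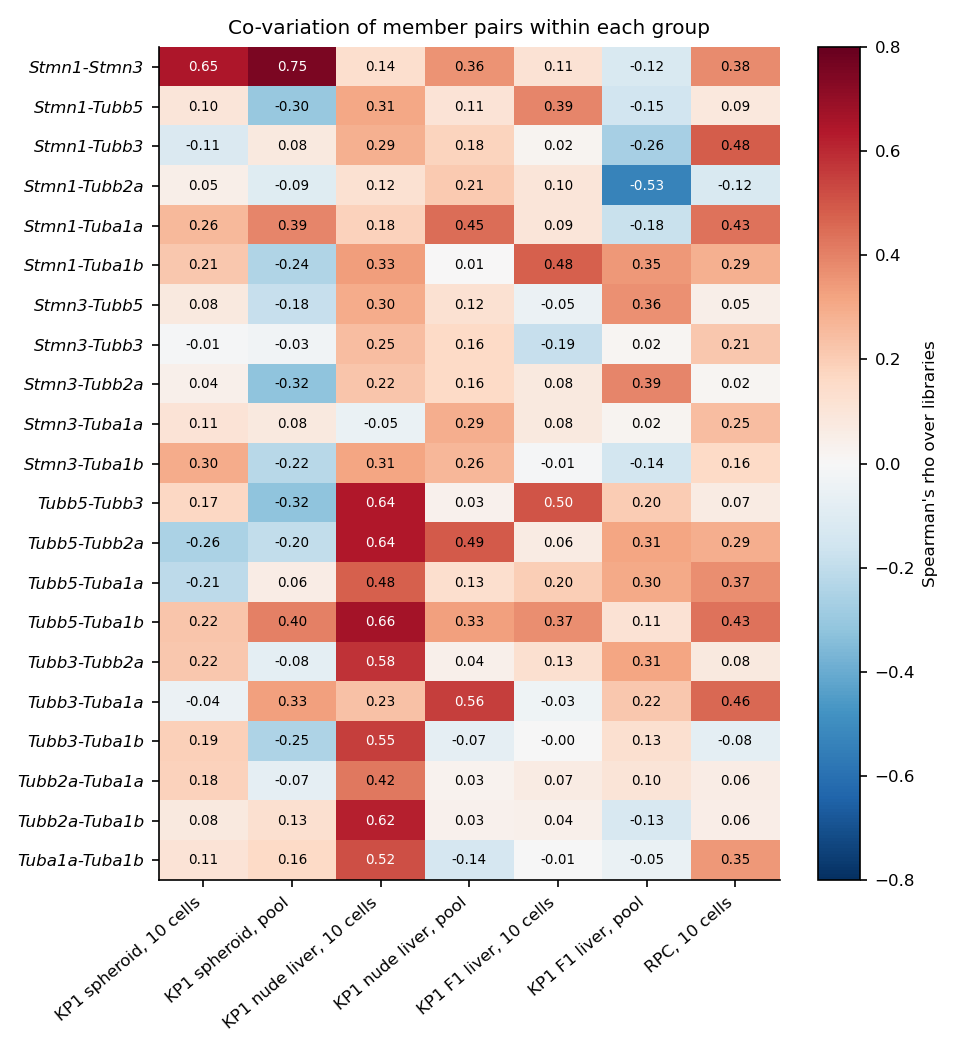
Each cell gives Spearman's rho between 2 members over the libraries of 1 group (columns), red for positive and blue for negative. The nude liver capture column is red for the tubulin pairs, 0.23 to 0.66, and Stmn1 with Stmn3 is high in both spheroid columns.

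Across all captures, centred on group means, the genes most like Tubb5, Tuba1b and Stmn1 by Pearson's r among 5245 genes were as follows. Tubb5 was nearest to Tuba1b (0.57), then Cox7a2 and Psmd2 (0.55 each). Tuba1b was nearest to Slc38a6 (0.58), Tubb5 (0.57) and Lrrc8d (0.55), and Stmn1 to Atp5a1 (0.56), Nfib (0.53) and Nono (0.51). Stmn2 over the 24 RPC captures, among 5279 genes, was nearest to Selenoh (0.80), Vps16 (0.74) and Gdpd1 (0.71).

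The bulk libraries, made by another protocol and with 1 library a line, are given as values only. Stmn2 was at 0.0579 CPM in KP1, 0.919 in KP2, 0.0264 in KP3 and 0 in KP5, so none of the 4 lines came near the RPC captures. Stmn1 was at 861 CPM in KP1, 1792 in KP2, 976 in KP3 and 1023 in KP5. Tubb5 was at 1164, 3431, 1307 and 2313 CPM in the same order, and Tuba1a at 1095, 2232, 1118 and 1802 CPM. KP2, the line with a Ptch1 lacz allele, had the highest values for these 3 genes and for Tuba1b (2401 CPM), Stmn3 (174 CPM), Tubb3 (171 CPM) and Stmn4 (12.6 CPM), and also for Tubb2b (5.21 CPM). Tubb2a was highest in KP1 (19.2 CPM) and lowest in KP3 (2.67 CPM).

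Other genes of the microtubule system gave this background, from lists of related genes. Of 20 genes that fold tubulin, among them the CCT chaperonin subunits, prefoldin and tubulin cofactors, 10 were lower and 1 higher in nude liver than in spheroid captures (median log2 difference -0.77, against -0.04 over all genes, of which 16.3% were lower and 17.7% higher). In pools 2 were lower and 2 higher, against 9.13% and 16.5% of all genes. Of the 19 tested between hosts, 10 were higher in F1 than in nude liver captures (median 0.69, against 0.26 over all genes, of which 11.2% were higher), Tcp1, a chaperonin subunit, by 1.43 (edgeR adjusted p = 4.84e-06). Of 18 proliferation genes 10 were lower in nude liver captures than in spheroids (median -1.04), with Pcna, the replication clamp, at 72.6 ± 62.5 CPM (SD, n = 33) against 323 ± 134 CPM (SD, n = 28). In F1 captures 3 of the 18 were lower than in spheroids (median -0.28, against 0.22 over all genes, of which 4.91% were lower), Pcna among them (66.6 ± 65.1 CPM, SD, n = 31, edgeR adjusted p = 3.13e-09), and 6 were higher than in nude liver (median 0.91). In F1 pools 1 of the 18 was lower than in spheroid pools, against 2.65% of all genes, and the list's median was 0.23 against 0.46 over all genes.

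Of 17 microtubule-associated proteins tested in nude liver against spheroid captures 3 were higher and 0 lower, and the share that was higher is close to the 17.7% of all genes; Jpt1 was at 2291 ± 773 against 1257 ± 385 CPM (0.73, edgeR adjusted p = 7.16e-05). Between hosts, Map1b, a neuronal microtubule-associated protein, was lower in F1 liver (51.0 ± 47.9 against 157 ± 121 CPM, -1.27, edgeR adjusted p = 0.0107), and the beta-tubulin Tubb4b was higher (1553 ± 655 against 866 ± 403 CPM, 1.36, edgeR adjusted p = 3.18e-06). In RPC against KP1 spheroids, described only, 4 of 8 other tubulins were lower and 0 higher (11.6% and 10.3% of all genes), Elavl2 had 143 ± 63.0 against 4.92 ± 8.27 CPM, and Prph had 0.0251 ± 0.0908 against 52.2 ± 56.0 CPM. Of 18 neuronal cytoskeleton and growth cone genes tested 3 were higher and 3 lower in RPC, against 10.3% and 11.6% of all genes.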

How the data were processed

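The authors deposited 1 table of expected counts (estimated read counts per gene) for 199 libraries, with 31581 gene rows and 92 ERCC spike-in rows and no scaling; RSEM and Bowtie2 and the builds GRCm38 and GRCh38.p12 are named per the submitters' processing notes, without versions. Of the values, 89.3% were whole within 0.005. Captures were 10 cells from sections of 8 µm, amplified by poly(A) PCR without molecular identifiers per the labels' protocols, so the Poisson interval of the Stmn2 ratio covers counting error only, while intervals of fitted differences cover the spread between libraries.

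Groups came from the labels. Counts were rounded to whole numbers and ERCC rows left out. Mean levels were compared with edgeR 4.0.16 in R 4.3.3 (TMM, filterByExpr, robust quasi-likelihood F test) over the groups compared, and Benjamini-Hochberg adjusted over all genes tested, with calls at an adjusted p under 0.05. Captures and pools were set against each other across sites by an interaction in the same model. Spread was compared with limma 3.58.1 on log2(CPM + 1), leaving out genes averaging under 5 CPM. The main edgeR fit of each pair of groups was tested on simulated data, as was the spread test with the group sizes of the spheroids. The other fits were not. Alternatives were other scalings, filters, DESeq2 1.42.0, limma-voom, summed paralogs, splits by ERCC share or Rpl19-ps11, a hepatocyte covariate and a replicate block. The members and gene lists were chosen with earlier results of these data known. Named genes are the 10 members and, per comparison, up to 2 listed genes in each direction with the smallest adjusted p. Promoters and coding ends were read from RefSeq and GENCODE tables. Coding ends of the alpha-tubulins are not reported here.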

Additional observations from a re-analysis of the deposited data

How the results depend on the processing

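Some of the calls that the text leads with kept their direction and side of the threshold under each alternative run. Stmn1 stayed higher in F1 liver than in spheroids in 15 of 15 alternatives in captures and 14 of 14 in pools. Its log2 fold change ran from 0.97 to 1.82 and from 1.35 to 2.80. Tubb5 stayed lower in nude liver in 13 of 13 in captures (-1.72 to -1.27) and 12 of 12 in pools (-1.67 to -0.64). Other calls moved, and the cause was not tested. In nude liver against spheroid captures Tuba1a, Tuba1b and Tubb2a lost theirs with the hepatocyte covariate. Tubb2a lost its call in pools with only spheroid pools of at least 0.1% ERCC. In F1 against nude captures Tuba1a, Tuba1b and Tubb2a lost theirs with F1 libraries low in Rpl19-ps11. The number of members called in nude liver against spheroid captures, 4, was 1 with the hepatocyte covariate. In F1 against spheroid captures, 2 became 4 with no filter, 4 with a minimum of 10 CPM, 5 with DESeq2, and 1 each with the hepatocyte covariate, with spheroid libraries of at least 0.1% ERCC and with library totals. In F1 against nude captures, 6 became 2 with F1 libraries low in Rpl19-ps11. In RPC against KP1, 4 became 7 with limma-voom, the added 3 lower in RPC. In F1 against spheroid pools, 2 became 4 with DESeq2, 4 with F1 libraries low in Rpl19-ps11, 4 without libraries over 10% ERCC and 1 with spheroid libraries of at least 0.1% ERCC. Between spheroid captures and pools, 0 became 1 with RLE scaling in edgeR, 2 with no filter and 1 with a minimum of 10 CPM. The number was also 1 with spheroid libraries under 0.1% ERCC and with library totals. Between nude captures and pools, 1 became 2 with no filter and 3 with DESeq2. Between F1 captures and pools, 1 became 2 with no filter, 0 with low Rpl19-ps11 and 0 without libraries over 10% ERCC. Directions turned, with a call in the alternative, for Tubb3 in nude liver against spheroids (-1.69 with DESeq2 and -2.93 with limma-voom in captures, -3.44 with limma-voom in pools) and for Tuba1a in F1 against spheroid pools with paralogs summed (0.59), and, without a call there, for Tuba1b in F1 against spheroid captures with low Rpl19-ps11 (-0.067). Signs of differences not called to begin with also changed in some alternatives: against spheroids, the lowest values in F1 liver were -0.29 for Tubb5 and -0.64 for Tuba1a in captures and -0.28 for Tubb5 and -2.21 for Tubb3 in pools, and the highest in nude liver pools was 0.33 for Tuba1b. Stmn3 in F1 against nude captures was called in 5 of 13 alternatives. The alternatives with library totals and without libraries over 10% ERCC were chosen after seeing the data. Groups held over 5 libraries, so no library was left out in turn.

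Libraries with the same replicate number did not deviate together, so the numbers pair nothing. With the replicate block, members called fell from 1 to 0 between nude captures and pools and from 1 to 0 between F1 captures and pools (Stmn1 at edgeR adjusted p = 0.0834 and 0.0528), and Tubb3 in nude liver against spheroids was called lower at -3.06 in captures and -4.67 in pools. Of F1 against nude liver, Stmn3 in captures (edgeR adjusted p = 0.241) and Tubb2a in pools (0.0535) lost their calls and Tubb3 in captures gained one (0.0163).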
